A study of Mus musculus with 3143 samples.

Results

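The 6 genes described here are Angpt1 and Angpt2, which encode the ligands angiopoietin-1 and angiopoietin-2, Tek and Tie1, which encode the receptors Tie2 and Tie1, and Apln and Aplnr, which encode the peptide ligand apelin and its receptor. They were taken by symbol from the deposited count table, and all 6 of the 6 were found among its 46517 gene names. The table holds 3143 single cells of the glomerular fraction of C57BL/6 adult mouse kidney, of which 1798 were labelled IgAN, for IgA nephropathy, and 1345 Control; the labels used here do not say how the IgAN animals were produced. The fraction was dissociated with collagenase IV, pronase E and DNase I, and cells positive for the CellTracker dye CMFDA-Green were sorted 1 to a well and sequenced by Smart-seq2, a full-length method that carries no molecular identifiers.

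Endothelial cells carry the receptor Tie2 on their surface. Angiopoietin-1, made by cells around the vessel, activates Tie2 and keeps endothelium quiescent, while angiopoietin-2, which is made by endothelium itself in many vascular beds and by some perivascular cells, blocks or activates the receptor depending on the setting. Tie1 is a related receptor that binds no angiopoietin with high affinity and modifies Tie2 signalling. Apelin is cut from a longer precursor and acts on the G protein-coupled receptor encoded by Aplnr, which is known from veins, sprouting vessels and microvascular endothelium.

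The ligands and the receptors each come as a pair of related genes, and the bases that the pair shares decide whether reads of 1 gene could be counted for the other. In the coding sequences of the GENCODE transcripts on GRCm38, Angpt1 and Angpt2 were identical at 65.06% of 1477 aligned bases and Tek and Tie1 at 62.44% of 3251. The longest run of identical bases was 17 for the ligands and 18 for the receptors, and these runs are shown in capitals with the bases around them. For the ligands the run lies just before the stop codon.
Angpt1: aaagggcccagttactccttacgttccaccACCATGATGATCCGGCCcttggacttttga
Angpt2: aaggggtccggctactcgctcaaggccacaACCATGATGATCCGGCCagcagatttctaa
Tek: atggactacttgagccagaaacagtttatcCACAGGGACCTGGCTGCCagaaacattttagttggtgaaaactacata
Tie1: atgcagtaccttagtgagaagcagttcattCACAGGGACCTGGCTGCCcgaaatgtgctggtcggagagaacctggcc

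The Angpt1 and Angpt2 windows cover coding bases 1438 to 1497 and 1432 to 1491, and the Tek and Tie1 windows bases 2851 to 2928 and 2887 to 2964, counted from the A of the start codon. The apelin precursor is short, with 77 codons. Its whole coding sequence is shown because the active peptide lies at its end: the capitals mark the last 13 codons before the stop, which encode apelin-13.
Apln: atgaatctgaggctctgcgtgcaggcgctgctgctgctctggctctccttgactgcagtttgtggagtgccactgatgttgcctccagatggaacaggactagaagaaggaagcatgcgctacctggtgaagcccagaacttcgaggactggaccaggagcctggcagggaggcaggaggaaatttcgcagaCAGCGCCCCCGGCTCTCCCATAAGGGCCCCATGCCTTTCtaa

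On GRCm38, Angpt1 lies on the minus strand at chr15:42424723-42676977 and Angpt2 on the minus strand at chr8:18690263-18741562. Tek lies on the plus strand at chr4:94739289-94874976, and Tie1 on the minus strand of the same chromosome at chr4:118471191-118490061. Apln lies on the minus strand at chrX:48025146-48034853 and Aplnr on the plus strand at chr2:85136225-85139923. All 6 are protein-coding. An antisense gene on the opposite strand, Gm17473, covers 737 of the 5205 exon bases of Angpt1, and reads of the 2 genes cannot be told apart there because Smart-seq2 does not mark the strand. Angpt2 lies within Mcph1, on the opposite strand, and shares 0 exon bases with it.

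Each cell held between 50365 and 1135415 reads in genes, with a median of 234207. Cells were placed in classes by clustering with the 6 genes and the pathway genes left out, and each class was named from its markers: 1010 IgAN and 622 Control cells were endothelial-like, 115 and 51 mesangial-like, 21 and 11 smooth muscle or renin cell-like, 49 and 24 parietal epithelial-like, and 39 and 146 podocyte-like. Since no animal is named in the labels, each group counts as 1 sample and no test between the groups was possible. The spread between the 6 IgAN and 4 Control plates stands in for replicate error; every plate held cells of 1 group, and the effects of plate and group cannot be told apart. Endothelial markers were found in other classes, most of all in the tubule cells of the IgAN plates 315 and 325, and podocyte markers summed to between 386 and 817 CPM in the endothelial-like cells of the 10 plates. The share of the mitochondrial pseudogene Gm13340 had a median of 56.8% in IgAN cells and 0% in Control cells. This difference goes with the group, as do the plates, and its cause was not tested. Of all 3143 cells, 41 carried a share that lies on the side of the other group.

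Levels are reads per 1000000 reads in genes (CPM), from reads summed over the cells of a class, and brackets give the exact 95% Poisson interval, which covers counting error only. A cell is called positive for a gene at 100 CPM or more, a limit chosen after the values were seen, since most cells held at least a read of the receptors. In 2802 of the 3143 cells Tek had at least 1 read, but in 1448 it reached 100 CPM. Tie1 had a read in 2830 cells and reached the limit in 1360. The ligands were far rarer. Angpt2 reached 100 CPM in 223 cells, Apln in 41 and Angpt1 in 31, and Aplnr in 458. A difference between the groups is the log2 difference of summed CPM with 1 CPM added, IgAN minus Control. A gene met the size rule when this difference was at least 1 in size and no plate of 1 group with 10 or more cells of the class reached the range of the other group's plates.

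**Figure D1:**
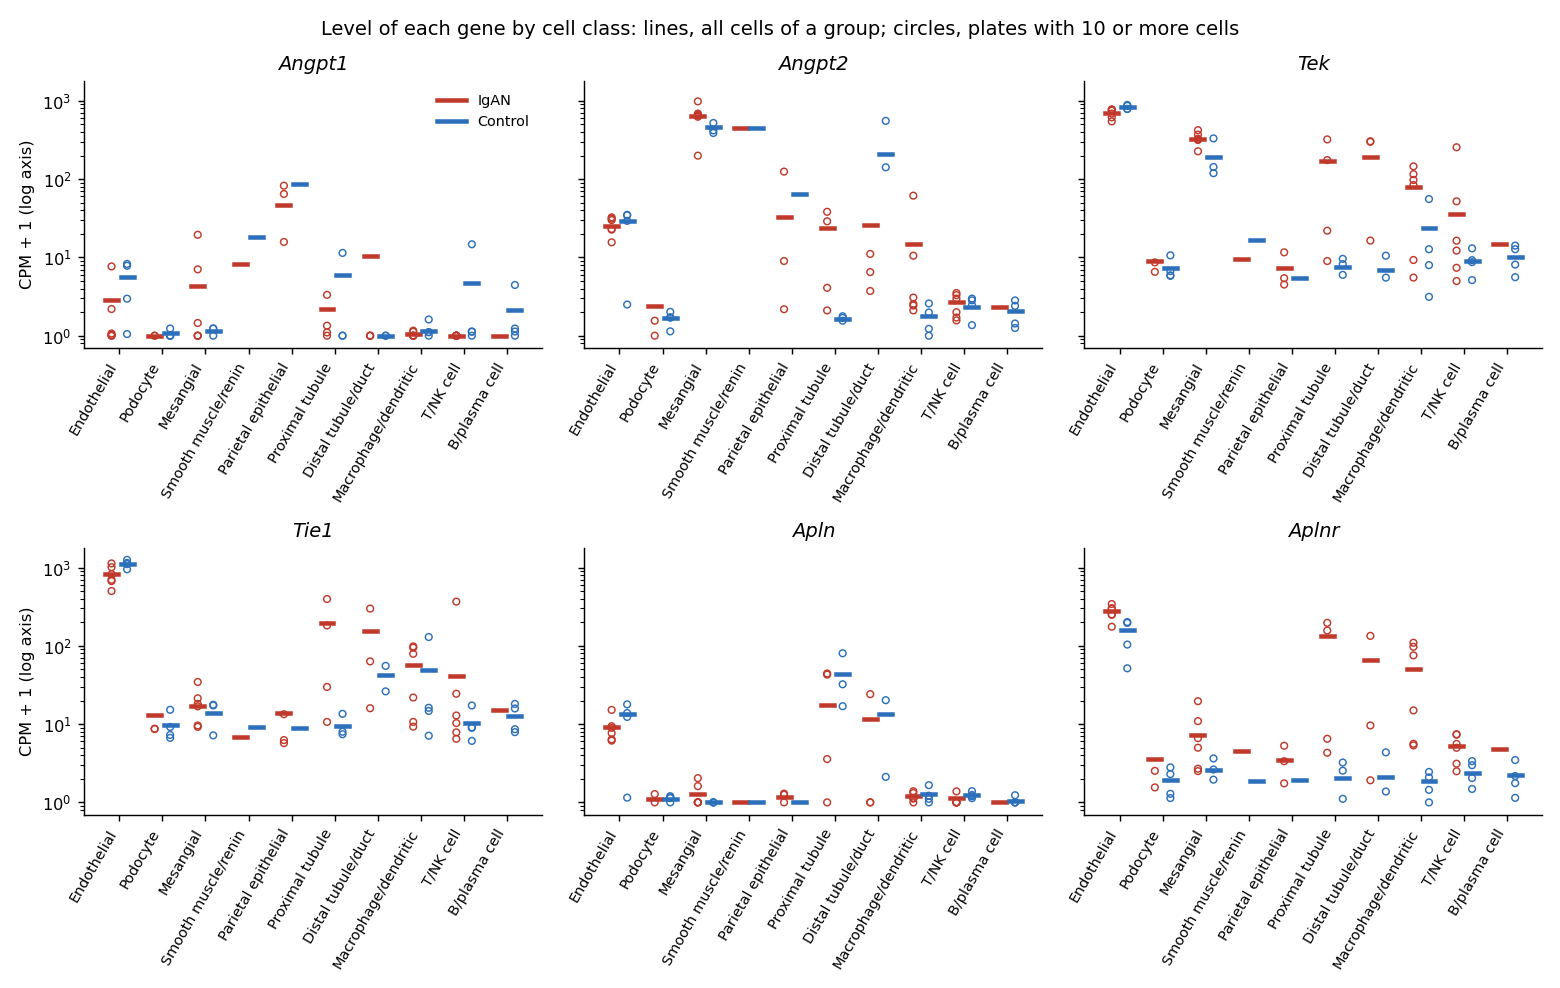
Level of each of the 6 genes (CPM + 1, log axis) in 10 cell classes, with a line for all cells of a group and a circle for each plate with 10 or more cells of the class. Angpt2 is highest in mesangial-like cells and in the smooth muscle or renin class, Tek and Tie1 in endothelial-like cells, and only Tek of the 2 receptors is also high in mesangial-like cells.

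Angpt1, the ligand that activates Tie2, was highest in parietal epithelial-like cells, the cells that line Bowman's capsule. Its level there was 46.0 CPM (42.8 to 49.3) in IgAN and 85.7 CPM (79.3 to 92.5) in Control. It reached 100 CPM in 8 of 49 IgAN cells and 6 of 24 Control cells, so most parietal cells held little of it. The IgAN plates with the most parietal cells, 313, 316 and 318, stood at 14.7, 81.4 and 63.6 CPM. The plates 315, 322 and 325 held 7, 2 and 5 such cells and stood at 0, 154 and 0 CPM. The Control plates 314, 317, 321 and 326 held 9, 2, 5 and 8 cells and stood at 107, 0, 83.4 and 79.6 CPM. The groups overlap, and no Control plate held the 10 cells that the size rule needs.

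The parietal cells positive for Angpt1 were compared with those under 10 CPM on markers that had not chosen them. No marker list pointed 1 way throughout. Of 8 parietal markers 4 were higher and 4 lower in the 14 positive cells of both groups than in the 53 others: the tight junction gene Cldn1 stood at 2142 against 1627 CPM and the adhesion gene Ncam1 at 1115 against 589 CPM, but Krt7, a keratin, at 0.702 against 7.95 CPM. Of 10 mesangial markers 5 were higher and 5 lower, with the receptor Pdgfrb at 1381 against 899 CPM and Des, an intermediate filament gene, at 405 against 570 CPM. Of 12 podocyte markers 8 were higher and 4 lower. The transcription factor Tcf21 stood at 208 against 90.6 CPM, and the surface genes Podxl and Ptpro at 174 against 276 and at 2.11 against 70.9 CPM. Of 7 fibroblast markers Lum, Dpt and Clec3b had 0 reads in both sets, while the collagen gene Col1a1 stood at 446 against 231 CPM.

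Outside the parietal class Angpt1 came from few cells. Podocyte-like cells, which wrap the glomerular capillary, held 0 reads in 39 IgAN cells, where 3 reads would be 0.279 CPM, and 3 reads in 146 Control cells (0.0681 CPM). Mesangial-like cells stood at 3.32 CPM in IgAN, with 2 of 115 cells positive, and at 0.153 CPM in Control with 0 of 51. In the smooth muscle or renin class the level was 7.16 CPM in IgAN and 17.0 CPM in Control, from 1 positive cell in each group. These reads came from the renin-rich cells: the 14 cells with 1000 CPM or more of Ren1, which encodes renin, held 27.3 CPM of Angpt1 and the other 18 cells 0.

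Endothelial-like cells held 39.1% of all Angpt1 reads but at a low level, 1.90 CPM in IgAN and 4.62 CPM in Control. A single IgAN cell of 1010, at 1130 CPM, held 92.1% of the IgAN reads. In Control 7 of 622 cells were positive, at 128 to 830 CPM, and 6 of the 8 positive cells of both groups belonged to 1 cluster, number 4, led by the elastic fibre gene Fbln5. That cluster stood at 16.8 CPM in IgAN and 17.2 CPM in Control. The IgAN value came from the single positive cell, 1 of 123, which held 99.4% of the reads there. In Control 5 of 115 cells were positive, and the highest held 31.1% of the reads. Against the 1618 cells under 10 CPM of Angpt1, all 7 markers of large vessels or arterioles were higher in the 8 positive cells and all 6 of the glomerular capillary lower. Fbln5 stood at 906 against 115 CPM, Gja5, a gap junction gene of arteries, at 681 against 100 CPM, and Gata5, a transcription factor of glomerular endothelium, at 30.5 against 368 CPM.

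Angpt2 was highest in mesangial-like cells, which hold the capillary loops together, and next in the smooth muscle or renin class, not in endothelium. Per kb of exon and over both groups, it stood at 158 CPM in mesangial-like cells, 122 CPM in the smooth muscle or renin class and 7.04 CPM in endothelium. Mesangial-like cells held 52.4% of all Angpt2 reads and the far more numerous endothelial-like cells 26.0%. Of the 10 mesangial markers, 5 were among the 10 leading genes of that cluster: Itga8, Sfrp2, Ptn, Serpine2 and Agtr1a.

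In mesangial-like cells Angpt2 stood at 644 CPM (634 to 654) in IgAN and 458 CPM (447 to 470) in Control, a log2 difference of 0.49. The IgAN plates 313, 315, 316, 318, 322 and 325 stood at 645, 659, 624, 686, 983 and 198 CPM. The Control plates 314, 317 and 326 stood at 387, 418 and 520 CPM, and plate 321, with 4 cells, at 746 CPM. With 10 or more cells required, 5 of 6 IgAN plates lay above every Control plate and plate 325 lay below all 3, so the groups overlap. Without plate 325 the difference was 0.62 and the plates no longer overlapped, as was the case in the same direction for 2.15% of the genes measured without that plate. Because the plate was picked by the Angpt2 values, this share does not give how often such a choice parts the plates of a gene. Positive cells made up 67.0% of the IgAN cells (77 of 115) and 58.8% of the Control cells (30 of 51). When cells that each passed a marker gate took the place of the cluster, the difference was -0.03, and when cells carrying another class's markers were left out, 35 IgAN and 23 Control cells remained and it was 0.99.

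The smooth muscle or renin class held Angpt2 at 451 CPM (435 to 468) in IgAN and 448 CPM (426 to 472) in Control. Of these, 13 of 21 and 6 of 11 cells were positive. The level was 310 CPM in the 14 renin-rich cells and 538 CPM in the 18 others; the contractile gene Acta2 was high in both, at 4853 and 4440 CPM. No plate held enough of these cells for a comparison by plate. With cells carrying another class's markers left out, 2 IgAN and 2 Control cells of the class remained. At Leiden resolution 0.5 no cell took this class. Across the other alternatives its Angpt2 level ran from 12.0 to 515 CPM in IgAN and from 279 to 510 CPM in Control.

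In endothelial-like cells Angpt2 was confined to few cells: 41 of 1010 IgAN and 32 of 622 Control cells reached 100 CPM. The level was 24.4 CPM in IgAN and 28.4 CPM in Control, a log2 difference of -0.21. The IgAN plates 313, 315, 316, 318, 322 and 325 stood at 14.6, 22.1, 31.5, 21.6, 29.0 and 30.2 CPM. The Control plates 314, 317, 321 and 326 stood at 33.9, 28.3, 1.50 and 33.6 CPM, so the groups overlap and plate 321 was the lowest of all 10. The sign depended on the weighting: with plates weighted equally the difference was 0.03. The 73 positive cells held 51.6 CPM of the 10 mesangial markers summed, against 88.4 CPM in the 1491 cells under 10 CPM of Angpt2, with 3 markers higher and 7 lower. The higher ones were Des, at 4.14 against 1.48 CPM, Gata3 and Postn. The 10 smooth muscle and renin markers summed to 41.9 against 38.2 CPM, with Rgs5 (7.07 against 1.21 CPM) and Acta2 (26.4 against 20.1 CPM) higher and 8 lower. Across the 1632 endothelial-like cells, with plate means subtracted, the genes most like Angpt2 were Cd248, Myl9, Spon2, Gpc3 and S1pr3, at a weak r of 0.12 to 0.14, and Cd248, Gpc3 and S1pr3 are among the 10 leading genes of the mesangial cluster. The part of mesangial RNA in endothelial Angpt2 was not tested. Within endothelium the gene was lowest in cluster 4, at 1.72 CPM in IgAN and 11.5 CPM in Control.

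Parietal epithelial-like cells held Angpt2 at 31.7 CPM in IgAN and 64.0 CPM in Control, with 3 of 49 and 4 of 24 cells positive. Podocyte-like cells held 1.397 and 0.704 CPM and no positive cell among 39 and 146. The podocyte level was thus far below that of the mesangial-like cells in both groups.

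Tek was highest in endothelial-like cells in both groups. The IgAN plates 313, 315, 316, 318, 322 and 325 stood at 775, 770, 747, 614, 685 and 545 CPM. The Control plates 314, 317, 321 and 326 stood at 884, 862, 787 and 784 CPM. All 6 IgAN plates lay below all 4 Control plates, though the highest IgAN and lowest Control plates were close. Summed over cells, Tek stood at 703 CPM (700 to 706) in IgAN and 834 CPM (830 to 838) in Control, a log2 difference of -0.25. Plates lay apart in this direction for 2.16% of the 9718 genes measured in endothelial-like cells. The difference is far below the limit of 1, and the share of positive cells was 74.7% in IgAN (754 of 1010) and 78.0% in Control (485 of 622).

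Tie1 was the more abundant of the pair in endothelium, at 191 CPM per kb of exon against 160 for Tek over both groups. Its IgAN plates 313, 315, 316, 318, 322 and 325 stood at 1009, 697, 1126, 820, 670 and 500 CPM. Its Control plates 314, 317, 321 and 326 stood at 947, 1251, 1145 and 1104 CPM. Plates 313 and 316 lay within the Control range and the other 4 IgAN plates below it. The summed level was 821 CPM in IgAN and 1114 CPM in Control, a log2 difference of -0.44, with 72.0% and 83.3% of cells positive. Across all 30 alternatives the Tie1 difference kept its sign, and so did that of Tek.

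The endothelial clusters were filled unequally by the groups, so the receptors were also read within clusters. Cluster 0, led by Fgf1 and platelet genes, held 23 IgAN and 393 Control cells. Cluster 3 held 267 and 4, and clusters 1, 2 and 4 held 338 and 67, 245 and 35, and 123 and 115. Tek stood at 803 CPM in IgAN and 850 CPM in Control in cluster 1, at 701 and 941 CPM in cluster 2, and at 540 and 656 CPM in cluster 4. Tie1 stood at 1038 and 1114 CPM in cluster 1, at 688 and 1035 CPM in cluster 2, and at 847 and 1053 CPM in cluster 4. In each of these 3 clusters the IgAN value of both receptors was the lower, but the plates of both overlapped in clusters 1 and 4. For Tek in cluster 1 they ran from 602 to 984 CPM in IgAN and from 752 to 1035 CPM in Control. Cluster 2 gave a plate value for 1 Control plate only. Cluster 0 went the other way for Tek, at 1075 CPM in its 23 IgAN cells and 877 CPM in its 393 Control cells. Tie1 stood there at 1008 and 1144 CPM. Platelet genes, 8 summed, stood at 19.3 CPM in IgAN and 157 CPM in Control endothelial-like cells; without the 2 clusters led by platelet or cell cycle genes the Tek difference was -0.15 and the Tie1 difference -0.38.

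**Figure D2:**
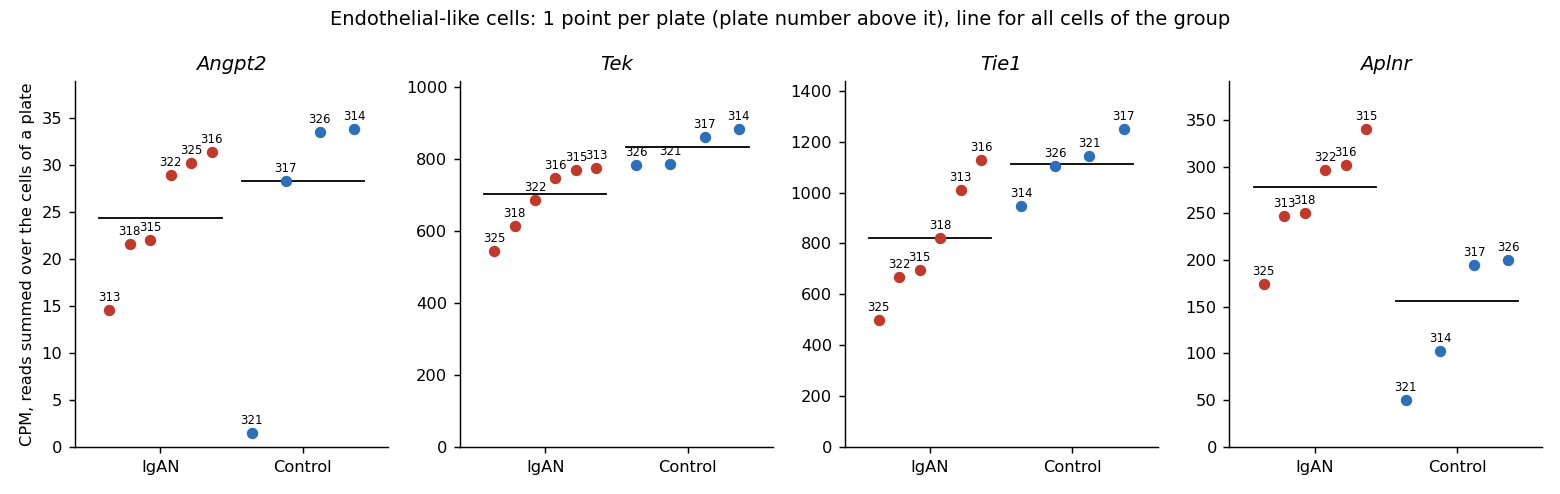
Level of Angpt2, Tek, Tie1 and Aplnr (CPM) in endothelial-like cells, with 1 point per plate, its number above it, and a line for all cells of the group. The Tek points of the groups do not overlap, Aplnr overlaps only through the IgAN plate 325 at 174 CPM, and the Control plate 321 is the lowest for Angpt2 and Aplnr.

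Mesangial-like cells also held Tek, and hardly any Tie1. Per kb of exon Tek stood at 59.8 CPM and Tie1 at 3.03 CPM in this class over both groups. The Tek level was 327 CPM (320 to 334) in IgAN and 190 CPM (183 to 198) in Control, a log2 difference of 0.78. The IgAN plates 313, 315, 316, 318, 322 and 325 stood at 317.13, 317.096, 369, 327, 225 and 420 CPM. The Control plates 314, 317 and 326 stood at 142, 118 and 330 CPM, and plate 321, with 4 cells, at 172 CPM. Plate 326 lay within the IgAN range and the other 2 Control plates below it. Without plate 326 the difference was 1.29 and met the size rule, as did 2.79% of the genes measured without it in the same direction. That plate was picked by the Tek values, and the share leaves out the same plate for every gene. It therefore does not give how often a gene meets the rule once its own overlapping plate is left out.

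The ratio of Tek to Tie1 reads differed between classes. In endothelial-like cells it was 0.856 in IgAN and 0.749 in Control, with plates between 0.663 and 1.11. In podocyte-like cells, where both receptors had few reads, it was 0.649 and 0.728. Proximal tubule-like cells stood at 0.873 and 0.764. Other classes had single plates far above the endothelial range: the ratio was 6.93 in macrophage or dendritic-like cells of plate 318, 4.87 in distal tubule or collecting duct-like cells of plate 325 and 4.30 in T or NK cell-like cells of plate 315, where Tie1 had 30 reads. Over all plates these classes stood at 1.399, 1.23 and 0.867 in IgAN and at 0.460, 0.144 and 0.850 in Control. In mesangial-like cells it was 20.4 in IgAN and 15.0 in Control, with IgAN plates between 12.6 and 44.9 and Control plates between 7.23 and 22.9. The lowest mesangial plate, at 7.23, was close above the highest plate of the other classes, at 6.93.

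Tie1 in mesangial-like cells, at 16.0 CPM in IgAN and 12.7 CPM in Control, was close to its level in podocyte-like cells, 12.2 and 8.83 CPM. Relative to endothelial-like cells of the same group, the mesangial level of Tie1 was 1.95% in IgAN and 1.14% in Control, and that of Aplnr 2.27% and 1.02%. The endothelial markers Pecam1, Cdh5, Kdr and Robo4 stood between 3.46% and 4.58% in IgAN and between 0.751% and 1.44% in Control. Tek stood at 46.5% and 22.8%. Among the 12 endothelial markers the median was 12.0% and 4.80%, and Plvap, Eng and Ehd3 were above or beside Tek, at 215%, 76.9% and 47.1% in IgAN. In Control, Plvap, Eng, Esam and Ehd3 were above Tek, at 419%, 84.2%, 35.1% and 32.4%, and the rest of the 12 were below it. The 12 markers were higher in IgAN than in Control mesangial-like cells by median, and their part in the group difference of Tek was not tested.

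Tek was not found in all mesangial-like cells. It reached 100 CPM in 62 of 115 IgAN cells and 19 of 51 Control cells, and in 77 of these 81 cells Tie1 was under 100 CPM. In 48 of the 81 cells Tie1 was even under 10 CPM, and these 48 held 522 CPM of Tek beside 1425 CPM of Pdgfrb and 602 CPM of Angpt2. In IgAN, Tek-positive cells held 1075 CPM of Pdgfrb against 1438 CPM in the other cells, and in Control 2091 against 1662 CPM. Angpt2 stood at 651 against 635 CPM in IgAN and 447 against 468 CPM in Control. Endothelial genes were higher in the Tek-positive cells of IgAN, with Pecam1 at 109 against 53.0 CPM and Cdh5 at 26.8 against 5.98 CPM. In Control they were not, with Pecam1 at 27.6 against 33.0 CPM and Cdh5 at 3.20 against 2.93 CPM. Angpt2 and Tek were both at 100 CPM or more in 56 of the 166 mesangial-like cells. Each on its own reached that limit in 64.5% (Angpt2) and 48.8% (Tek) of these cells. A link between the 2 genes within cells was not tested.

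With the cells that carried another class's markers left out, 35 IgAN cells were left and their Tek level was 244 CPM. The smooth muscle or renin class, which shares Angpt2 with the mesangium, held Tek at 8.53 CPM in IgAN and 15.5 CPM in Control and Tie1 at 5.79 and 8.05 CPM, with 1 Tek-positive cell of 32. High Angpt2 was thus found beside Tek in mesangial-like cells and almost without Tek in the smooth muscle or renin class. In the latter, only 2 IgAN and 2 Control cells were free of another class's markers.

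**Figure D3:**
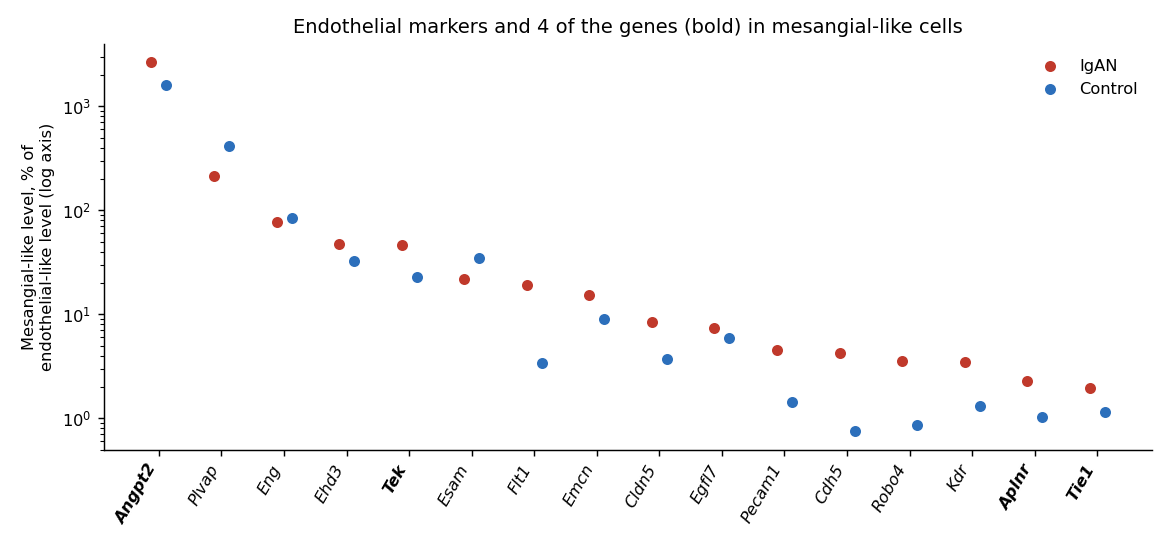
Level in mesangial-like cells as a percentage of the level in endothelial-like cells of the same group (log axis) for the 12 endothelial markers and for Angpt2, Tek, Tie1 and Aplnr (bold). Tek lies at 46.5% in IgAN and 22.8% in Control, while Tie1 and Aplnr, at the right, lie between 1.02% and 2.27%.

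Apln was found in very few cells. In endothelial-like cells 15 of 1010 IgAN cells and 15 of 622 Control cells were positive, and they held 95.4% and 96.2% of the Apln reads of the class. The IgAN cells ranged from 130 to 1707 CPM with a median of 311, came from all 6 plates and lay in 5 clusters. The Control cells ranged from 117 to 906 CPM with a median of 354 and came from 3 plates. The class level was 8.15 CPM in IgAN and 12.3 CPM in Control, with IgAN plates from 5.15 to 14.2 CPM around a median of 7.32 and Control plates from 0.150 to 16.9 CPM around a median of 12.1. The groups overlap, and the gene did not reach the 10% of cells with a read that a measured gene needs.

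The 30 Apln-positive endothelial cells were compared with the 1592 cells under 10 CPM. Of 6 activation genes 4 were higher in the positive cells, such as Sele, a leukocyte adhesion gene, at 401 against 135 CPM, while Cxcl2 stood at 18.1 against 19.2 CPM. Of 6 tip cell genes 4 were higher and 2 lower, with Esm1 at 195 against 92.6 CPM and the Notch ligand Dll4 at 503 against 551 CPM. Of 6 peritubular or venous genes 2 were higher and 4 lower, with Selp, another adhesion gene, at 79.8 against 6.38 CPM and Plvap at 129 against 178 CPM. All 7 large vessel genes were lower. The receptor was often in the same cell in IgAN: 11 of 15 Apln-positive cells were also positive for Aplnr, against 30.1% of all IgAN endothelial-like cells. In Control 4 of 15 were, against 15.8%. Of the 30 Apln-positive cells, 1 was also positive for Angpt2, beside 4.47% of all endothelial-like cells.

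Proximal tubule-like cells held the highest Apln level, 16.5 CPM in IgAN and 43.0 CPM in Control. It came from 3 of 145 IgAN cells and 5 of 85 Control cells, which held 91.2% and 99.9% of the reads. None of the 5 Control cells was positive for Aplnr, and 2 of the 3 IgAN cells were. Distal tubule or collecting duct-like cells stood at 10.8 and 12.6 CPM, from 2 of 72 and 1 of 46 cells. In the smooth muscle or renin class Apln had 0 reads in 32 cells, where 3 reads would be 0.457 CPM in IgAN and 0.895 CPM in Control, and in the mesangial-like cells of Control it also had 0 reads, where 3 would be 0.229 CPM.

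Aplnr, the apelin receptor, had the largest group difference in endothelium among the 4 of the 6 genes that were measured there, Angpt2, Tek, Tie1 and Aplnr; Angpt1, below the limit of a measured gene, differed by -0.96. The IgAN plates 313, 315, 316, 318, 322 and 325 stood at 248, 341, 301, 251, 297 and 174 CPM. The Control plates 314, 317, 321 and 326 stood at 103, 195, 50.6 and 200.03 CPM. Plate 325 lay within the Control range and the other 5 IgAN plates lay above it. The summed level was 278 CPM (276 to 280) in IgAN and 157 CPM (155 to 158) in Control, a log2 difference of 0.83. This misses the limit of 1, and the size rule was met in this direction by 0.772% of the 9718 genes measured. Without plate 325 the difference was 0.87 and the plates no longer overlapped, as for 1.93% of genes measured without it. Because the plate was picked by the Aplnr values, this share does not give how often such a choice parts the plates of a gene.

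Aplnr reached 100 CPM in fewer endothelial cells than Tek or Tie1. It was positive in 304 of 1010 IgAN cells (30.1%) and 98 of 622 Control cells (15.8%). By plate the share ran from 17.7% to 43.4% in IgAN and from 4.49% to 20.4% in Control, so these ranges overlap as well. Any read at all was found in 67.2% and 37.9% of endothelial-like cells, beside 33.3% and 21.2% of podocyte-like cells. No podocyte-like cell reached 100 CPM. With every cell thinned to 50000 reads the shares were 45.2% and 22.0% in endothelial-like cells and 9.39% and 5.00% in podocyte-like cells.

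In the 3 endothelial clusters with 30 or more cells of each group, Aplnr was higher in IgAN. It stood at 297 CPM in IgAN and 167 CPM in Control in cluster 1, at 310 and 105 CPM in cluster 2 and at 77.8 and 18.5 CPM in cluster 4, log2 differences of 0.83, 1.55 and 2.02. In cluster 0 the 23 IgAN cells stood at 197 CPM and the 393 Control cells at 191 CPM. Clusters 3 and 19, which held 4 and 8 Control cells, stood at 295 and 475 CPM in IgAN. In cluster 1 the IgAN plates ran from 214.34 to 491 CPM and the Control plates from 105 to 214.24 CPM, so they did not overlap but nearly touched. Plates lay apart in this direction for 1.92% of the genes measured there. In cluster 4 the plates overlapped, at 4.71 to 148 and 0.852 to 68.3 CPM. Cluster 2 gave a value for 1 Control plate only, 111 CPM, which lay within its IgAN range of 90.8 to 365 CPM. There 1 cell held 40.5% of the Control reads.

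Without clusters 0 and 19 the Aplnr difference was 1.50 and met the size rule, as did 1.12% of the genes measured without them in the same direction. The largest Control cluster was left out by that choice, and the Control level was then 97.6 CPM. Among cells with at least 2 of 6 activation genes (Sele, Cxcl1, Vcam1, Csf3, Icam1 and Cxcl2) at 10 CPM or more, 463 in IgAN and 83 in Control, Aplnr stood at 371 CPM and 186 CPM. The plates of this subset ran from 286 to 436 CPM in IgAN and from 42.7 to 250 CPM in Control and did not overlap, as for 3.48% of genes measured in it.

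All 7 markers of large vessels or arterioles were lower in the 402 Aplnr-positive endothelial cells than in the 1078 cells under 10 CPM of Aplnr. The arterial gene Gja5 stood at 6.19 against 147 CPM, Fbln5 at 10.4 against 166 CPM, and Hey1, a Notch target of arteries, at 16.0 against 89.4 CPM. The other lists were mixed. Of 6 activation genes 4 were higher, among them Sele at 236 against 99.7 CPM and Cxcl2 at 37.6 against 12.8 CPM, and Vcam1 was lower, at 25.8 against 38.1 CPM. Of 6 peritubular or venous genes 5 were higher, among them Plvap, a gene of fenestrated and venous endothelium, at 220 against 151 CPM, and Igfbp3 was lower, at 43.0 against 90.3 CPM. Of 6 glomerular capillary genes 3 were higher and 3 lower, with Nostrin, which binds nitric oxide synthase, at 482 against 314 CPM and Pi16 at 859 against 1263 CPM. The positive set held more IgAN cells, and the group's part in these contrasts was not tested. Angpt1-positive and Aplnr-positive endothelial cells thus lay at opposite ends of Fbln5 and Gja5.

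**Figure D4:**
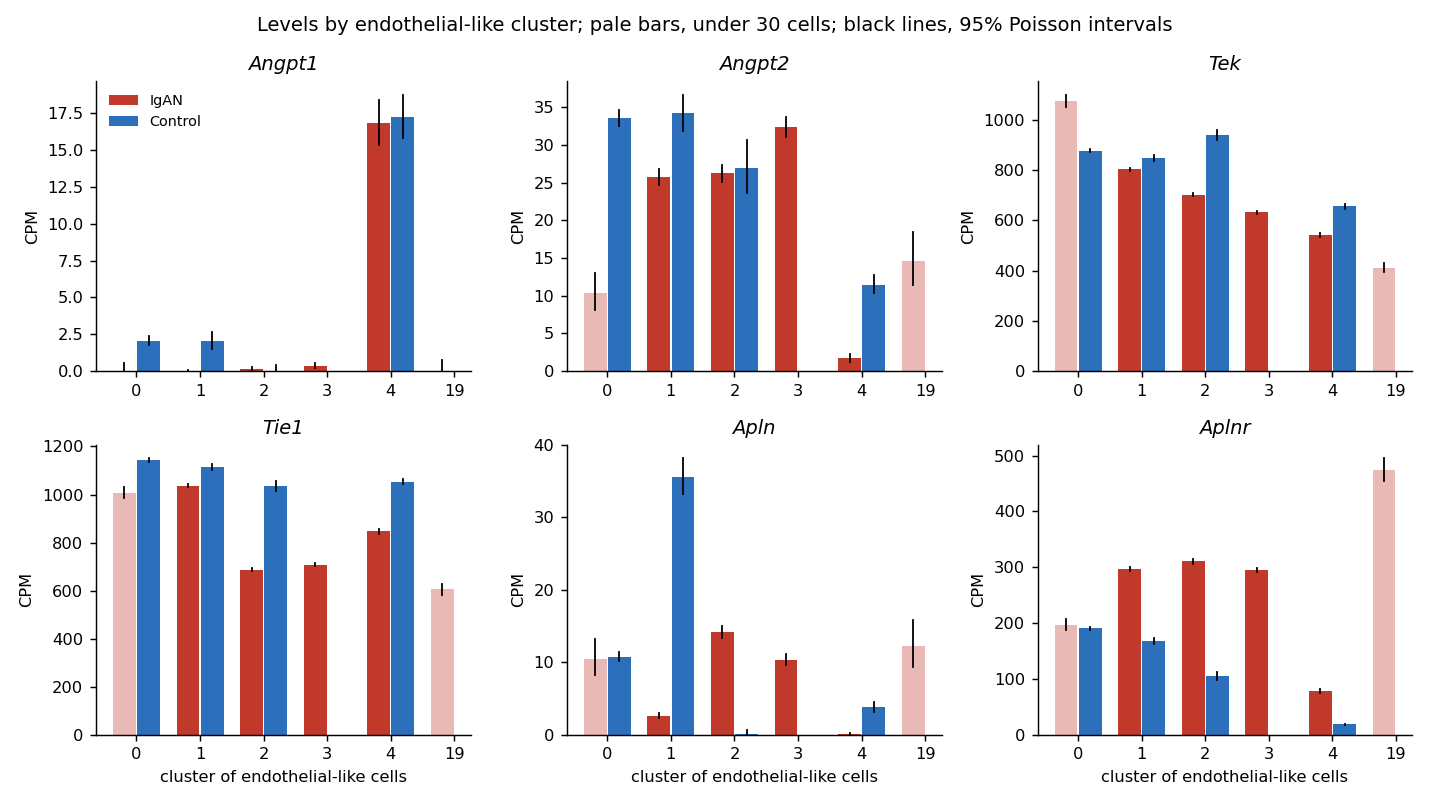
Level of the 6 genes (CPM) in the clusters of endothelial-like cells, with bars for IgAN and Control, pale where fewer than 30 cells stand behind them, and lines for 95% Poisson intervals. Clusters 3 and 19 have no Control bar because they held 4 and 8 Control cells. Angpt1 is highest in cluster 4, at 16.8 and 17.2 CPM, and Aplnr is lowest there, at 77.8 and 18.5 CPM. In cluster 4, 1 cell held 99.4% of the IgAN reads of Angpt1.

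Outside endothelium the receptors were high in IgAN tubule and macrophage classes together with endothelial markers. In proximal tubule-like cells Aplnr stood at 131 CPM in IgAN and 1.07 CPM in Control, a log2 difference of 5.99 that met the size rule, as did 6.63% of the genes measured there in this direction. Tek stood at 169 against 6.56 CPM and Tie1 at 193 against 8.59 CPM, and the plates of both overlapped. All 12 endothelial markers were also higher in IgAN: as a share of the endothelial level their median was 27.9% in IgAN and 1.20% in Control. By plate the median was 43.9% (33.7% to 71.6%) on plates 315 and 325, 2.73% on the other IgAN plates and 1.20% in Control. On the other IgAN plates, without 315 and 325, Aplnr stood at 4.74 CPM and Angpt2 at 1.48 CPM, and neither was then a measured gene. Tek stood there at 11.9 CPM and Tie1 at 15.1 CPM, differences of 0.78 and 0.75. Apln was unlike the markers in these cells, at 202% of its endothelial level in IgAN and 349% in Control.

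In distal tubule or collecting duct-like cells Tek stood at 188 CPM in IgAN and 5.93 CPM in Control, a log2 difference of 4.77 that met the size rule, as did 11.7% of genes there. Without plates 315 and 325 this difference was 0.81 and no longer met the rule. The 12 endothelial markers stood at a median of 28.5% and 3.47% of their endothelial level in these cells. In macrophage or dendritic-like cells Aplnr stood at 50.1 and 0.861 CPM, a difference of 4.78 that met the rule, as did 0.721% of genes. As a share of the endothelial level this was 18.0% in IgAN and 0.550% in Control, with the 12 markers at 14.0% and 6.00%. Aplnr was no longer a measured gene in this class with cells carrying another class's markers left out, or under the marker gate. The part of endothelial RNA in these differences was not tested. Angpt2 met the rule in opposite directions in the tubule classes. It stood at 23.0 against 0.640 CPM in proximal tubule-like cells, a difference of 3.87, where 6.63% of genes met the rule in that direction. In distal tubule or collecting duct-like cells it stood at 24.9 against 210 CPM, a difference of -3.03, where 5.44% of genes met the rule in that direction. The Control value of the distal class came from 2 positive cells of 46, and 1 of them held 56.9% of its reads. Without plates 315 and 325 this difference kept its sign but no longer met the rule.

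Among the other genes of the pathways, 1 met the size rule in endothelial-like cells. Of 26 listed genes for angiopoietin and Tie ligands, co-receptors and signalling, 20 were measured and 0 met the size rule, beside 0.772% of all genes in the higher and 0.679% in the lower direction. Of these 20, 11 had a positive and 9 a negative difference, with a median of 0.05 beside 0.01 over all 9718 genes. Ptprb, the phosphatase that opposes Tie2, stood at 851 CPM in IgAN and 812 CPM in Control, and Klf2, a flow-induced factor, at 1373 and 1341 CPM. Itgb1, an integrin chain, stood at 773 and 894 CPM and Cdh5, the junction cadherin, at 429 and 406 CPM. Foxo1, the factor that Tie2 signalling holds in check, stood at 167 and 132 CPM with overlapping plates.

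For apelin ligands, processing and signalling, 17 of 21 listed genes were measured, 0 met the rule, and 9 were positive and 8 negative with a median of 0.02. Ece1, a peptidase, stood at 578 CPM in IgAN and 809 CPM in Control, and the G protein subunit Gnai2 at 592 and 569 CPM. Furin, the protease known to cut the apelin precursor, stood at 48.7 and 31.8 CPM. Hdac4, a deacetylase downstream of the receptor, stood at 26.2 and 14.2 CPM. Its plates did not overlap, as for 1.50% of genes in this direction, but its difference of 0.83 missed the limit.

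For hypoxia and VEGF genes that act on Angpt2 and Apln, 12 of 14 were measured, 0 met the rule, and 4 were positive and 8 negative with a median of -0.09. The receptors Kdr and Flt1 stood at 1434 and 1456 CPM and at 450 and 549 CPM in IgAN and Control, the hypoxia factor Epas1 at 920 and 1134 CPM and Ldha at 546 and 605 CPM. Vegfa, the VEGF ligand, stood at 22.8 and 12.2 CPM, a difference of 0.85, with plates apart as for 1.50% of genes in this direction. For quiescence and activation genes, 9 of 12 were measured and 1 met the rule. This was Icam1, a leukocyte adhesion gene, at 346 and 144 CPM, with plates from 276 to 470 and from 103 to 191 CPM and a difference of 1.26. Vcam1 and Sele had differences of 1.68 and 1.19 with overlapping plates, and Thbd, an anticoagulant receptor gene, stood at 388 and 633 CPM, also overlapping. Klf2, Klf4, Nos3 and Esm1 stand in more than 1 of the lists.

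**Figure D5:**
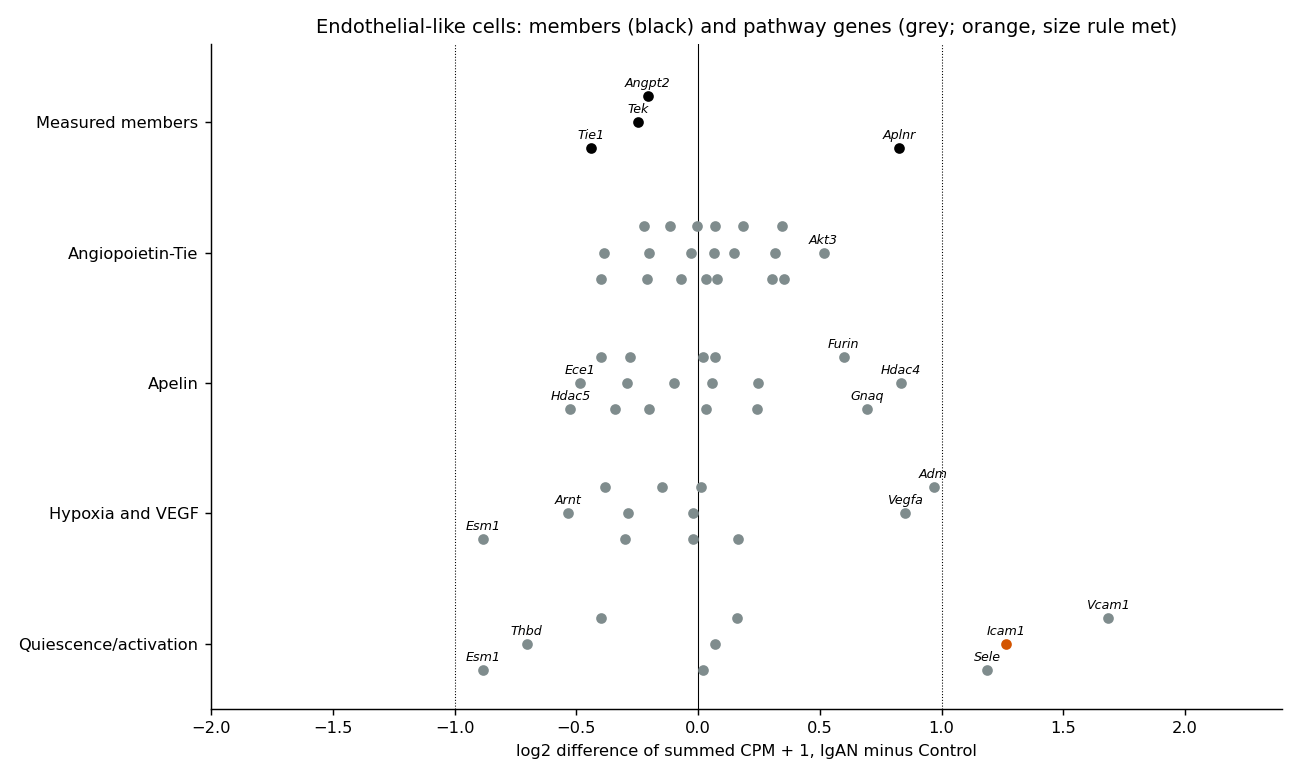
Log2 difference of summed CPM + 1 in endothelial-like cells, IgAN minus Control, for the measured members (black) and the measured genes of 4 pathway lists (grey, orange where the size rule was met), with dotted lines at -1 and 1. Icam1 at 1.26 is the only orange point, and Aplnr at 0.83 lies just inside the line.

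In mesangial-like cells 1 of the 59 listed entries measured met the rule, where 1.25% of genes did in the higher and 1.47% in the lower direction. It was Furin, at 87.3 CPM in IgAN and 14.0 CPM in Control, with plates from 40.3 to 155 and from 5.02 to 22.4 CPM. The medians of the 4 lists were -0.27, 0.30, 0.23 and 0.96 in the order above. In podocyte-like cells only 2 IgAN plates held 10 or more cells, with 15 and 10. The 4 lists had 18, 14, 11 and 5 measured genes there, in the order above. Of these, 8 genes met the rule, beside 3.71% of genes in the higher and 6.34% in the lower direction. Svep1, whose product is a ligand of Tie1, stood at 103 CPM in IgAN and 48.2 CPM in Control, Foxo1 at 19.2 and 7.83 CPM and Klf2 at 28.9 and 78.1 CPM. Icam1, Ccnd1 and Irs2 were also higher, by 1.99, 1.26 and 1.81, and Tnip2 and Slc2a1 lower, by -1.85 and -1.57 on the log2 scale.

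The genes most like each member were sought over 64 sums of a class on a plate, which share libraries and depth, by Pearson r of log2 CPM. Tek was most like Myct1 (r = 0.97), Cd34 and Sdpr (both 0.96), which are endothelial genes, and Tie1 most like Gata5os, Gata5 and Robo4 (each 0.96). Aplnr was most like Grrp1, Sox17 (both 0.92) and Ccm2l (0.90). Angpt2 was most like Lmo7, Mecom and Tinagl1 (each 0.85). The sparse ligands had lower values: Angpt1 was most like Medag at 0.71, and Apln most like Hdc at 0.76, the gene of histidine decarboxylase.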

How the data were processed

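Single-cell RNA of 3143 sorted glomerular cells was measured on 10 plates, named by the number that opens each cell's label. The deposited values are counts of whole reads per gene, without molecular identifiers; per the submitters' processing notes the authors used TopHat2 2.1.1, SAMtools 0.1.18 and featureCounts of Subread 1.4.6-p5 with GRCm38. Cells were clustered with scanpy 1.11.5 and leidenalg 0.10.2 under Python 3.11.15 (2000 variable genes, 30 components, 15 neighbours, Leiden resolution 1, 22 clusters). A cluster took the class whose markers were highest; no doublet caller was run, and an alternative left out cells carrying another class's markers. One cluster of 25 IgAN cells stayed unnamed.

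A gene was measured at 10 CPM in 1 group with a read in 10% of its cells. All 6 members were named, with list genes that met the size rule and the 4 most abundant of each list in endothelial-like cells. Other named genes (subtype markers, Foxo1, Furin, Hdac4, Vcam1, Sele, Thbd) were chosen after their values were seen. The members and lists were chosen with earlier results of these data known. The size rule was tested on simulated counts. Alternatives changed clustering, filters, scaling, pseudocount and plates.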

Additional observations from a re-analysis of the deposited data

Results flagged for a closer look

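Angpt2 met the size rule in opposite directions in 2 classes, and the difference between the classes was not tested. It differed by 3.87 (log2, IgAN minus Control) in proximal tubule-like cells, where 6.63% of genes met the rule in that direction. On the IgAN plates other than 315 and 325 its proximal level was 1.48 CPM, and it was not a measured gene without those plates. In the distal tubule or collecting duct class the difference was -3.03, where 5.44% of genes met the rule in that direction. There it rested on 2 positive Control cells. The plates of Tek lay apart in opposite directions in the distal tubule or collecting duct class, at 4.77, and in endothelial-like cells, at -0.25, and this difference was not tested either. The 12 endothelial markers stood at a median of 28.5% of their endothelial level in the distal cells of IgAN and 3.47% in Control. In the proximal cells they stood at 27.9% and 1.20%. Among the 11 groups of plates checked for a single plate far from the others, 0 held one.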

How the results depend on the processing

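No paired analysis was possible because the labels give no number that ties IgAN samples to Control samples. The Angpt2 difference changed sign among the alternatives, from -0.37 to 0.21 in endothelial-like cells and from -0.03 to 0.99 in mesangial-like cells. For Angpt2 and Tek in both classes and Tie1 and Aplnr in endothelial-like cells, 177 alternative values were compared. None of the reported differences of these genes met the rule in these classes, so no call could be lost. Of the 177 values, 174 moved by less than the plate spread and stayed on their side of the size rule, among them the Angpt2 values that changed sign. The exceptions were Tek in mesangial-like cells, at 1.32 with the marker gate and between 0.53 and 1.29 with 1 plate left out (1.29, meeting the rule, without plate 326), and Aplnr in endothelial-like cells, at 1.50 and meeting the rule without the clusters led by platelet or cell cycle genes, where the Control level of Tek was 777 CPM. Of the mesangial levels, Tek in IgAN was 257 CPM at Leiden resolution 0.5, and with cells carrying another class's markers left out it was 244 CPM and Angpt2 in Control 328 CPM. With a log2 limit of 0.5, 1 gene of the apelin list and 1 of the hypoxia and VEGF list met the rule in endothelial-like cells. With 1 plate left out, the hypoxia and VEGF list held 0 to 1 such gene (1 without plate 326) and the quiescence and activation list 1 to 2 (2 without plate 313 or 317). Angpt2 in distal tubule or collecting duct-like cells reversed to 4.89 at resolution 2 and to 3.68 with 4000 variable genes. The cause was not tested. The median difference over all endothelial genes was 0.01, and -0.05 with TMM and -0.06 with median of ratios scaling. The distal tubule and parietal classes gave no value under the marker gate. Depth limits Angpt1 and Apln, whose levels rest on few cells.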

Other observations

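A cluster of 25 cells, all of the IgAN plate 322, took no class name, because Aqp2, a collecting duct marker, was among its 10 leading genes and no endothelial marker was. It held Tek at 890 CPM and Tie1 at 676 CPM, beside 703 and 821 CPM in the endothelial-like cells of IgAN, and Aplnr at 392 CPM with 20.0% of its cells positive. Angpt2 stood at 23.6 CPM, and Apln had 0 reads in these cells.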
